A study of Canis lupus familiaris with 15 samples.

Results

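Solute carriers are the membrane proteins that move amino acids, sugars, vitamins, ions, nucleosides and other small molecules into and out of cells and their compartments. Every probe whose RefSeq identifier belongs to a dog gene with a symbol of SLC and a digit was taken, which gave 60 probes for 44 of the 1357 genes named on the array. The reference lists 357 such symbols, so most of the superfamily was not analysed here. Of the 44 genes 43 encode carriers, and SLC9A3R2 encodes a scaffold protein that binds transporters at the membrane. A gene with several probes, as 13 had, is given by its brightest probe.

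RNA came from 15 samples of 5 pet dogs with lymphoma, 1 array per sample. The controls were 2 skin biopsies, from MalcolmX and Rosco. Tumours labelled drug resistant were biopsied in 4 dogs (MalcolmX, Jake, Rosco and Dog Y), and 1 tumour labelled drug sensitive was biopsied in Thai. The labels of Rosco and Dog Y also call their biopsies untreated, and Thai's title has the word naive. MalcolmX gave 1 fine needle aspirate of the resistant tumour after metformin, an oral diabetes drug. From Rosco came an aspirate after failed chemotherapy, before metformin was given, and 4 aspirates after metformin, 1 of them in remission and 3 at relapse. An aspirate labelled a second original resistant tumour and tissue taken after death were also from Rosco. The relapse titles read no remission. Repeated samples of Rosco show the spread within 1 dog, and nothing in the labels says how far the relapse aspirates were apart.

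Some carriers are coupled to an ion gradient, some exchange solutes, and others let their substrate run down its own gradient. Lymphocytes that divide are known to take up more glucose, glutamine and large neutral amino acids through SLC2A1, SLC1A5 and SLC7A5, while other carriers mark one tissue, such as SLC4A1 the red cell or SLC15A1 the lining of the gut. Equilibrative nucleoside carriers also take up several cytotoxic nucleoside drugs, and organic cation carriers take up metformin.

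Levels are log2 processed signals minus the array's own 75th percentile, so a level of 0 is a bright probe, and a difference of 1 between arrays is 2-fold. Levels of different genes come from different probes and cannot be compared with each other. On each array 66.7% to 75.9% of probes were well above background, a flag that the scanner software sets for each spot. The lowest level among such probes ran from −6.86 to −5.50 over the arrays. In bulk samples, fewer cells of a type and less RNA per cell cannot be told apart.

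The labels were checked against cell type markers. MS4A1, the surface antigen CD20 and the only 1 of 9 B cell markers named on the array, had a level of 1.78 to 3.53 in the tumour samples other than 4 of Rosco. It was 0.40 after failed chemotherapy and 0.38 in remission. In the Rosco biopsy and the second resistant aspirate it was not well above background, with readings of −7.16 and −6.73 beside −8.04 in Rosco skin and 0.84 in MalcolmX skin. The mean level of 5 measured exocrine gland markers of 10 (CA6, SPINT2, KRT19, CLDN3, PIGR) was 4.29 and 4.54 in those 2 samples and −3.98 to 1.39 on the other 13 arrays. These 2 samples, on different slides and scan days, thus went against their lymphoma label, and results that rest on the Rosco biopsy are given with and without it. In the aspirates taken after failed chemotherapy and in remission, the mean of 5 measured T and NK cell markers of 8 was 0.90 and 0.90, against −5.24 to −0.66 elsewhere. Keratinocyte markers (7 of 12) averaged 3.84 and 6.86 in the skin samples and at most −2.65 elsewhere, and skeletal muscle markers (4 of 10) averaged 4.89 in MalcolmX skin.

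Of the 44 genes, 30 were well above background on all 15 arrays, 10 on some and 4 on none. All 6 nucleotide sugar carriers, all 3 metal ion carriers, all 3 vitamin carriers and both mitochondrial carriers were measured on all arrays. The 4 that no array measured were SLC10A2, the bile acid carrier of the ileum, SLC22A2, the renal organic cation carrier, SLC4A1, the chloride/bicarbonate exchanger of red cells, and SLC6A2, the noradrenaline carrier. For 29 genes the highest and lowest reading were more than 2 apart on the log2 scale, that is more than 4-fold, readings near background included.

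**Figure D1:**
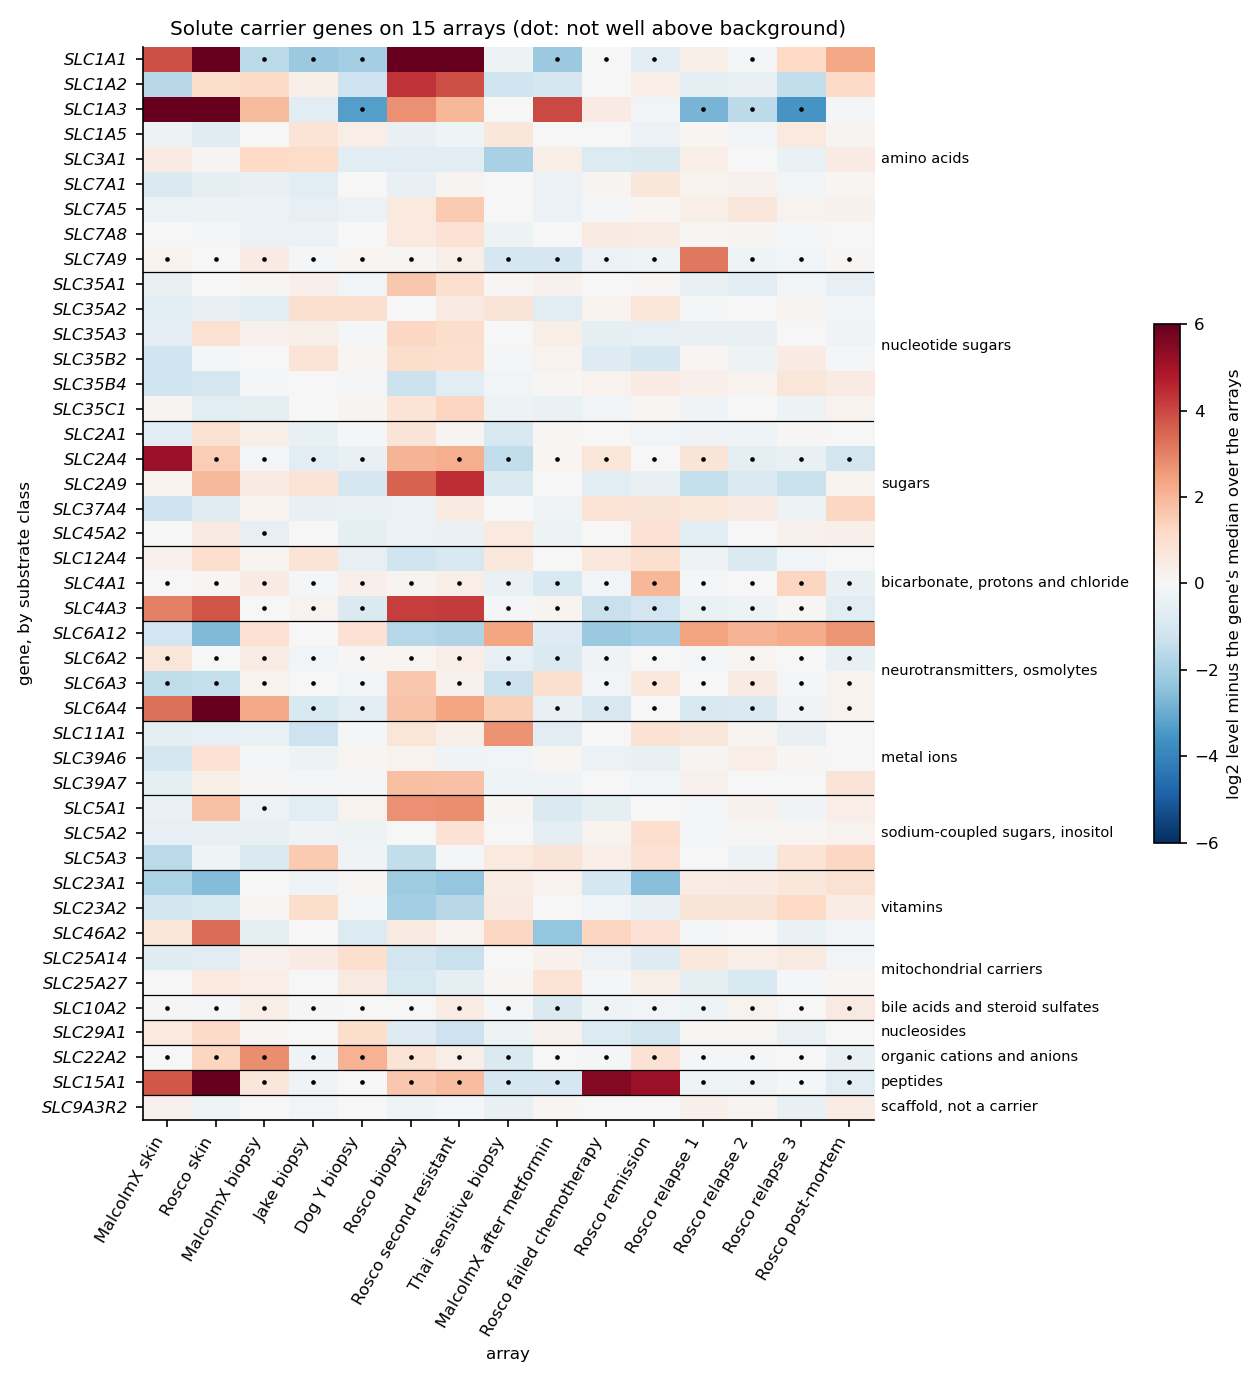
Log2 level of each gene reported on 15 arrays minus that gene's median over the arrays, with genes in rows by substrate class and arrays in columns. Dots mark readings not well above background, and the colour scale ends at 6 in either direction. SLC1A1, SLC1A2, SLC2A9 and SLC4A3 are red in both the Rosco biopsy and the second resistant aspirate, and SLC6A12 is red in the relapse aspirates, the post-mortem sample and the Thai biopsy.

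Relapse aspirates of Rosco were set against the aspirates taken after failed chemotherapy and in remission, to ask how the tumour that came back after metformin differed from what was aspirated before. SLC6A12, the betaine and GABA carrier, and both sodium-coupled vitamin C carriers rose, as did carriers for nucleosides, zinc and the sulfate donor of the Golgi. SLC15A1, which takes up small peptides, SLC1A3, a glutamate carrier, the membrane protein SLC46A2 and the potassium/chloride cotransporter SLC12A4 were among those that fell. In all, 12 of 34 tested genes passed limma's test at an adjusted p under 0.05, 7 higher and 5 lower. That is 35.3% of the genes, beside 33.7% of all 25366 targets tested (8551), so the share of carriers called was close to that of the array. Without adjustment 16 of 34 (47.1%) were under 0.05, against 44.4% of all targets. Groups did not overlap for 10 higher and 13 lower genes (67.6%), against 60.3% of all targets. The median difference was −0.23 over the carriers and −0.08 over all targets.

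SLC6A12 carries betaine, an osmolyte, and GABA into cells with sodium and chloride. Its level was 0.56, 0.21 and 0.38 in relapse aspirates 1, 2 and 3, −4.04 after failed chemotherapy and −3.89 in remission. The relapse mean was 0.39 ± 0.18 (SD, n = 3) and the earlier mean −3.96 ± 0.11 (SD, n = 2), a difference of 4.35 (SE 0.19, limma adjusted p = 0.000168). All 3 relapse values lay far above both earlier ones, and the gene was well above background on all arrays. Skin read −3.00 in MalcolmX and −4.48 in Rosco, and the 2 samples high in gland genes read −3.53 (biopsy) and −3.65 (aspirate). Resistant biopsies of MalcolmX, Jake and Dog Y read −0.92, −1.83 and −0.98. The Thai biopsy read 0.56, the post-mortem sample 0.82 and MalcolmX after metformin −2.59. High values were thus found in the relapse, post-mortem and drug-sensitive tumours. The biopsies of MalcolmX, Jake and Dog Y had intermediate values, and MalcolmX after metformin lay between those and skin. Low values were found in skin, in the samples high in gland genes and in the earlier aspirates. All high arrays were scanned on the later day and all intermediate ones on the earlier day, and low ones on both. High and intermediate thus cannot be told apart from scan day.

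SLC15A1 takes up di- and tripeptides with protons and is best known from the small intestine. It was well above background on 4 arrays, at −2.59 after failed chemotherapy, −2.92 in remission, −4.36 in MalcolmX skin and −0.60 in Rosco skin. Relapse aspirates 1, 2 and 3 read −8.37, −8.30 and −8.20, none of them well above background. The fitted difference was −5.54 (SE 0.19, limma adjusted p = 0.000122), and the level was at least 9.57-fold lower in relapse. The gene entered the test through the earlier aspirates alone, so the fit sets measured levels against background readings, and it was not tested where a signal was required on every array. With normexp background correction the difference was −1.46 (adjusted p = 0.000469). Such bounds set the brighter group's mean against the higher of each dim reading and the lowest level measured on its array. Other readings, all near background, were −7.42, −8.30, −8.09 and −6.48 in the biopsies of MalcolmX, Jake, Dog Y and Rosco, −6.26 in the second resistant aspirate, −9.10 in the Thai biopsy, −9.08 in MalcolmX after metformin and −8.73 after death. Apart from skin, SLC15A1 was measured in those aspirates of Rosco that also had the high T and NK cell marker levels.

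Both vitamin C carriers rose. SLC23A1, the carrier of absorbing epithelia, read −1.13, −1.06 and −0.90 in the relapse aspirates, −2.60 after failed chemotherapy and −4.11 in remission. The difference was 2.33 (SE 0.43, adjusted p = 0.00957). SLC23A2, the widely expressed vitamin C carrier, read −2.66, −2.68 and −2.21 in relapse, −3.61 after failed chemotherapy and −3.86 in remission, a difference of 1.22 (SE 0.22, adjusted p = 0.009). With normexp correction it was 0.46 and not called (adjusted p = 0.0831). For each gene all relapse values lay above both earlier values, and the earlier values of SLC23A1 were themselves wide apart. Elsewhere SLC23A1 read −3.46 and −4.16 in the skin of MalcolmX and Rosco, −1.56, −1.76, −1.48 and −3.70 in the biopsies of MalcolmX, Jake, Dog Y and Rosco, −3.88 in the second resistant aspirate, −1.13 in the Thai biopsy, −1.36 in MalcolmX after metformin and −0.64 after death. SLC23A2 read −4.54, −4.36, −3.35, −2.36, −3.52, −5.45, −5.10, −2.88, −3.43 and −2.97 in the same order. Both genes were low in skin and in the samples high in gland genes, and higher in the other tumours, except SLC23A1 in remission. SLC46A2, a member of the folate carrier family first described in thymic stroma, moved the other way. Its readings were −1.49, −1.36 and −1.74 in relapse, −0.06 after failed chemotherapy and −0.47 in remission, a difference of −1.26 (SE 0.22, adjusted p = 0.00769).

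Among amino acid carriers 1 of 7 tested was called, where 33.7% of all 25366 targets were. SLC1A3, a sodium-coupled glutamate carrier known from glia, was at −4.13 after failed chemotherapy and −4.78 in remission and was not well above background in relapse, with readings of −7.41, −6.20 and −8.15. The difference was −2.80 (SE 0.57, adjusted p = 0.0128), or at least 2.94-fold lower. It too entered the test through the earlier aspirates alone, and with normexp correction the difference was −0.60 and not called (adjusted p = 0.0622). SLC1A2, another glutamate carrier, had a difference of −1.02 (adjusted p = 0.0678). SLC3A1, the heavy chain of the kidney cystine carrier, had a difference of 0.87 and missed the threshold (adjusted p = 0.051). It passed with quantile scaling (0.0205), median scaling (0.016), the mean of its probes (0.0339), a signal required on every array (0.0425) and the slide as a block (0.046). Carriers linked to lymphocyte growth gave small differences, 0.37 for SLC1A5 (SE 0.28, adjusted p = 0.351), 0.42 for SLC7A5 (SE 0.21, adjusted p = 0.181) and −0.05 for the glucose carrier SLC2A1 (SE 0.19, adjusted p = 0.859). None of the 4 tested genes placed by family in the sugar class passed (SLC2A1, SLC2A9, SLC37A4 and SLC45A2). SLC45A2 did pass with the slide as a block. All 4 differences were negative, but that of SLC2A1 turned to 0.14 when arrays were scaled to their medians. The difference of SLC7A5 turned to −0.06 with normexp background correction.

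SLC29A1, the main equilibrative nucleoside carrier, read 1.81, 1.79 and 1.34 in relapse, 0.94 after failed chemotherapy and 0.64 in remission, a difference of 0.86 (SE 0.23, adjusted p = 0.0311). SLC25A14, a mitochondrial inner membrane carrier of the uncoupling protein family, read 0.18, −0.05 and 0.10 against −0.79 and −1.22, a difference of 1.08 (SE 0.21, adjusted p = 0.0105). SLC35B2, which brings the sulfate donor PAPS into the Golgi, read −1.16, −1.59 and −0.75 against −2.02 and −2.26, a difference of 0.97 (SE 0.28, adjusted p = 0.0408). Groups did not overlap for any of these genes, and the gaps were under 1 on the log2 scale. SLC39A6, a zinc importer of the cell surface, read 2.91, 3.13 and 2.82 against 2.38 and 2.28, a difference of 0.62 (SE 0.18, adjusted p = 0.0448). Its 2 other probes gave 0.52 and 0.57, and the second probe of SLC29A1 gave 0.67. SLC39A6 missed the threshold with quantile scaling (adjusted p = 0.0743), the series table (0.0652), no filter on dim probes (0.0618) and the slide as a block (0.0882). SLC29A1 missed it with the mean of its probes (0.0526) and without the filter (0.0565), and SLC35B2 with the slide as a block (0.0633) and without the filter (0.0793).

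Lower in relapse was also a carrier that sets cell volume. SLC12A4, which lets potassium and chloride out of swollen cells, read −1.37, −1.89 and −1.20 in relapse, −0.40 after failed chemotherapy and −0.11 in remission, a difference of −1.24 (SE 0.26, adjusted p = 0.0145). The groups did not overlap, and its second probe gave −1.09.

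Each of the 5 arrays was left out in turn. SLC15A1 and SLC1A3 were not well above background in any relapse aspirate. Their fits here and within slides thus again set measured levels against background readings. SLC6A12, SLC15A1 and SLC23A1 passed in all 5 fits, and the other 9 genes missed the threshold in at least 1. Without the remission aspirate, 4 of 34 genes were called (11.8%), SLC46A2 being the fourth, where 14.5% of all targets were. Without the failed chemotherapy aspirate 6 of 34 were called (17.6%), where 21% of all targets were. SLC23A2 and SLC25A14 were lost without remission (adjusted p = 0.0775 and 0.0805), SLC46A2 without failed chemotherapy (0.0544), and SLC12A4 and SLC1A3 without either (0.0551 and 0.0863 without failed chemotherapy, 0.11 and 0.0623 without remission). SLC29A1 and SLC39A6 passed only when relapse 3 was the array left out (0.0134 and 0.0305), and SLC35B2 passed without relapse 2 (0.0251) or relapse 3 (0.0481) only. Directions did not change in these fits, all limma with Benjamini-Hochberg adjustment. Within slide 4, with 2 relapse aspirates and the remission aspirate, SLC15A1 (difference −5.33), SLC23A1 (3.13) and SLC6A12 (4.18) were called, and within slide 3, with 1 array a side and no test, the same differences were −5.78, 1.47 and 4.61.

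Markers of other cells moved with this comparison. All 5 T and NK cell markers measured were lower in relapse and 3 of them passed (CD28, CD8A and KLRD1), with list means of −2.70, −2.11 and −2.58 in relapse against 0.90 and 0.90. MS4A1 rose by 1.70 on the log2 scale (limma adjusted p = 0.00278). All 5 keratinocyte markers tested were lower in relapse, 3 of them called, and so were all 5 fibroblast markers, 1 of them called. Single markers of muscle, fat and gland were called in both directions, with differences of 3.59 for MYH2, −4.98 for CA3, −0.89 for MYH1, −1.88 for ADIPOQ, 0.99 for SPINT2 and −1.53 for CA6. EPB41, a membrane skeleton protein of red cells, was lower in relapse by a difference of −2.33 (limma adjusted p = 0.00131). CYBB, a phagocyte oxidase subunit, was the 1 of 4 macrophage markers called, and it was higher in relapse. The 75th percentile of the raw signal was 445 and 367 in the earlier aspirates and 462, 434 and 765 in relapse. The part of cell mix and signal strength in the carrier differences was not tested. Of 27 proteins that assist or resemble carriers (sodium pump subunits, FXYD regulators, organic anion carriers and others) 6 were measured, and 1 of the 6 was called, the sodium pump subunit ATP1B1, with a difference of −2.34.

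**Figure D2:**
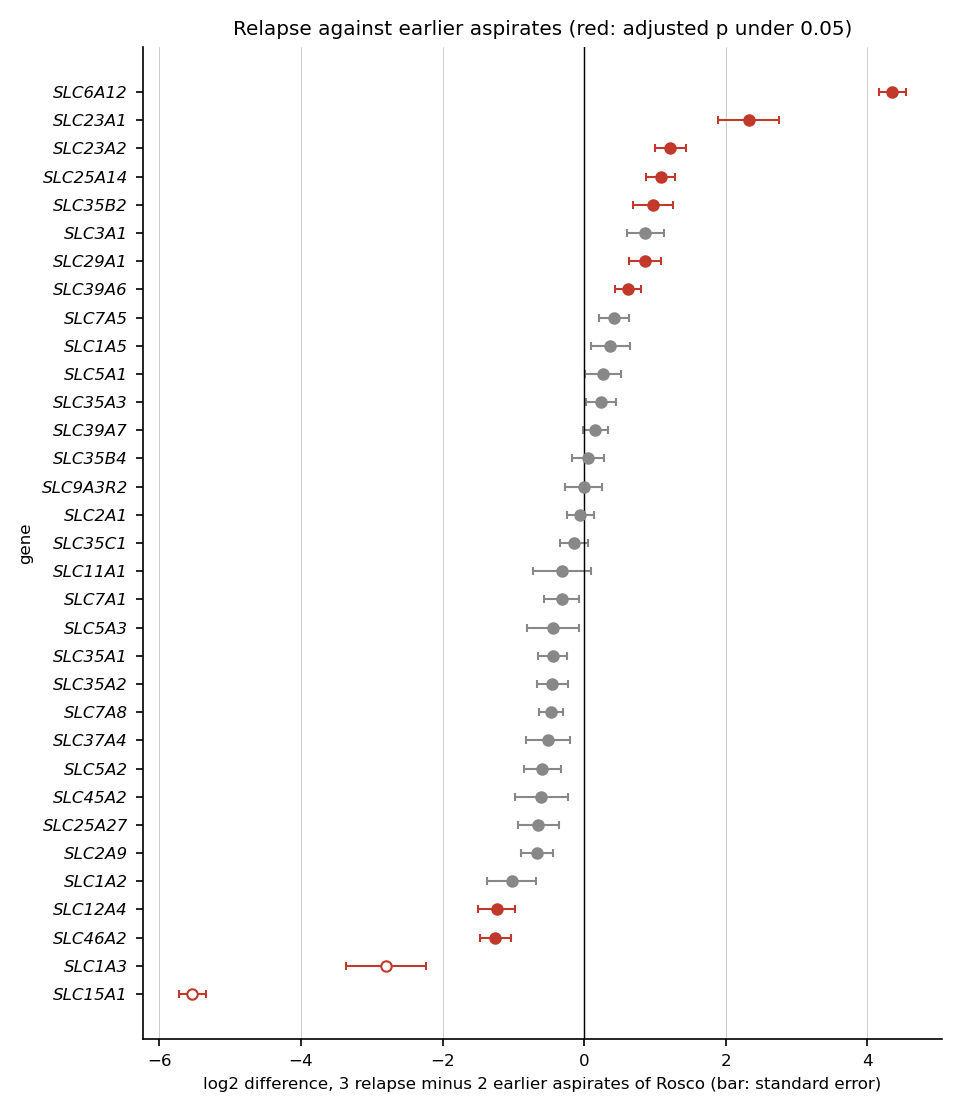
Log2 difference of the tested genes reported, mean of 3 relapse aspirates minus mean of 2 earlier aspirates of Rosco, with the limma standard error as bars. Red marks an adjusted p under 0.05, and open circles mark genes not well above background in any relapse aspirate. SLC6A12 at 4.35 and SLC15A1 at −5.54 stand outside the range from −2.80 to 2.33 that holds the other genes.

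**Figure D3:**
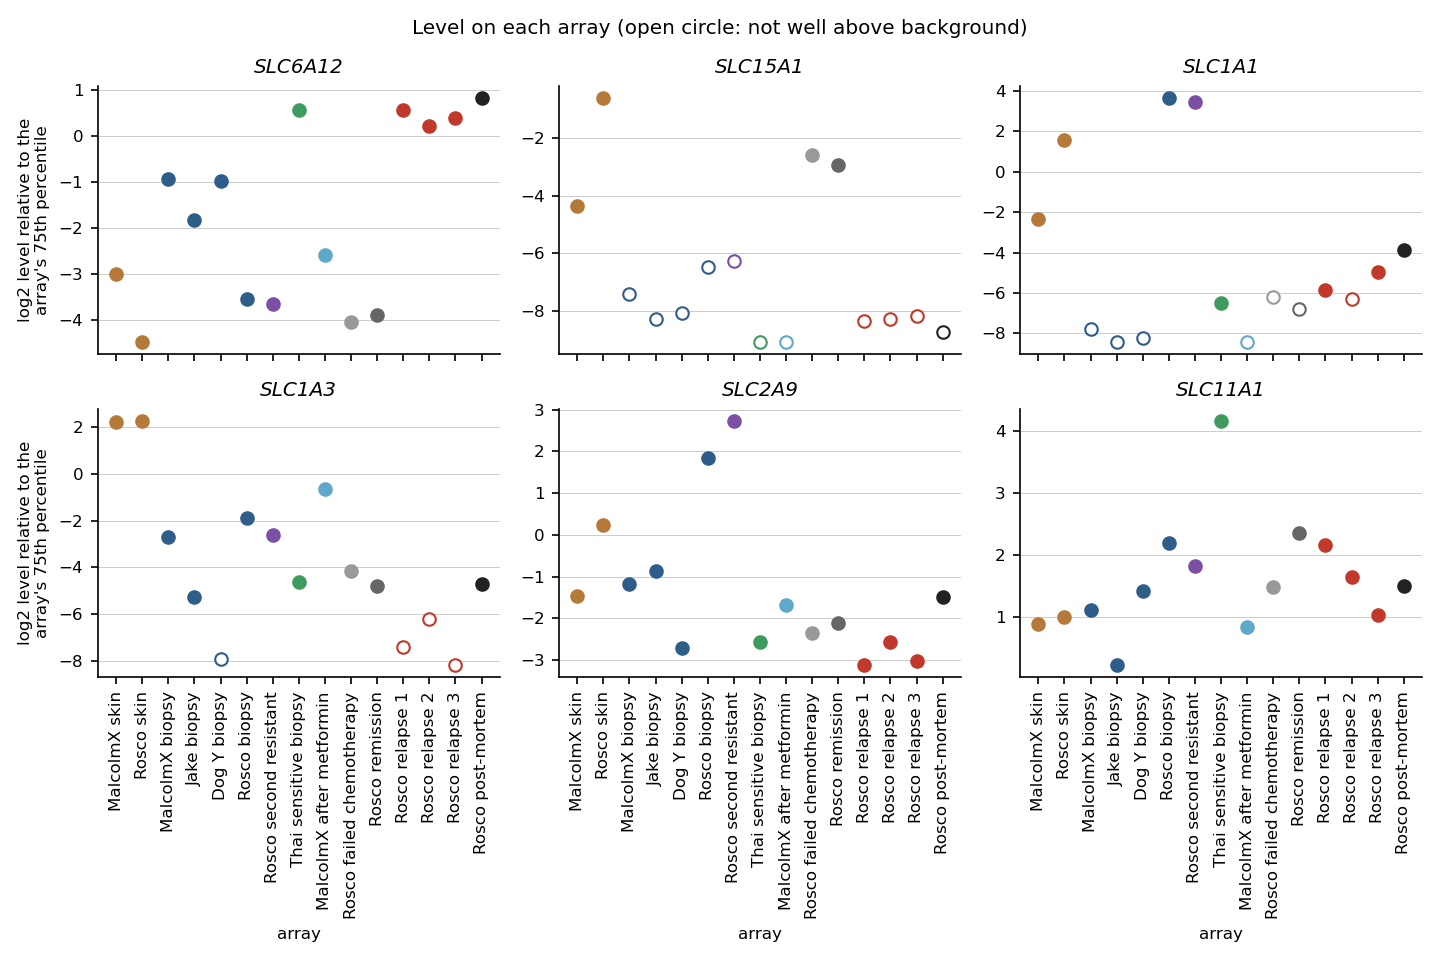
Log2 level of 6 carriers on each of the 15 arrays, relative to the 75th percentile of that array, 1 point per array coloured by sample group, open where the reading was not well above background. SLC6A12 separates the relapse and post-mortem samples of Rosco from the earlier aspirates, SLC15A1 is measured in skin and in the earlier aspirates, and SLC1A1 is highest in the Rosco biopsy (3.64) and the second resistant aspirate (3.46).

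Resistant biopsies were set against skin, the control tissue of the study. None of 37 tested carriers passed limma's adjusted threshold, beside 0.431% of 23921 targets (103), and the lowest adjusted p was 0.162. Without adjustment 4 carriers were under 0.05, all lower in the biopsies (10.8%, against 14.8% of all targets). Those were SLC15A1, SLC1A3, SLC46A2 and the serotonin carrier SLC6A4. SLC15A1, SLC1A3 and SLC6A4 entered the test through skin alone, with 0, 3 and 2 of 4 biopsies well above background. Their fits thus set measured skin levels partly or wholly against background readings. Groups did not overlap for 3 higher and 4 lower carriers (18.9%), against 28.5% of all targets. The median difference was 0.23 over the carriers and 0.25 over all targets.

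Without the Rosco biopsy, 12.8% of 24419 targets passed and so did 6 of 37 carriers. SLC6A12 (difference 2.50, adjusted p = 0.0461) and SLC23A1 (2.21, adjusted p = 0.0266) were higher in the remaining 3 biopsies than in skin. SLC1A1 (−7.79, adjusted p = 0.0218, at least 45.1-fold lower), SLC1A3 (−7.52, adjusted p = 0.0346), SLC15A1 (−5.45, adjusted p = 0.0371, at least 10.4-fold lower) and SLC4A3 (−3.61, adjusted p = 0.0195, at least 5.60-fold lower) were lower. SLC1A1, SLC15A1 and SLC4A3 entered this test through skin alone, since none of the 3 biopsies read them well above background. SLC1A3 too entered through skin alone, since the Dog Y biopsy did not read it well above background, and it has no fold bound. With all 4 biopsies the same 6 differences were 1.92, 1.69, −4.85, −6.67, −5.09 and −2.52, with adjusted p of 0.162 to 0.489. Leaving out MalcolmX skin in place of the Rosco biopsy, the difference of SLC15A1 was −6.97, with background readings in all 4 biopsies.

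All 3 members of the SLC1 family of glutamate carriers that were measured varied widely. SLC1A1, the carrier of neurons and of kidney and gut epithelium, had the widest range of all 44 genes. It read −2.32 and 1.59 in the skin of MalcolmX and Rosco, 3.64 in the Rosco biopsy and 3.46 in the second resistant aspirate. Biopsies of MalcolmX, Jake and Dog Y read −7.80, −8.43 and −8.24, and MalcolmX after metformin −8.43, none well above background. In Thai it was −6.50, and in Rosco −6.19 after failed chemotherapy and −6.81 in remission (neither well above background), −5.86, −6.28 and −4.97 in relapse 1, 2 and 3 (relapse 2 not well above background), and −3.86 after death. The gene was thus measured in skin, in both samples high in gland genes, in the Thai biopsy and in 3 late samples of Rosco. SLC1A2 was well above background on all arrays and read −3.64 and −0.95 in skin, −0.87, −1.63, −3.23 and 2.33 in the biopsies of MalcolmX, Jake, Dog Y and Rosco, −3.21 in Thai and 1.88 in the second resistant aspirate. It read −2.99 in MalcolmX after metformin, −2.00 after failed chemotherapy, −1.61 in remission, −2.58, −2.44 and −3.46 in relapse and −0.86 after death. Its highest values were again the 2 samples high in gland genes. SLC1A3 was highest in skin, at 2.20 and 2.26, and read −2.70, −5.26, −7.92 and −1.89 in the biopsies of MalcolmX, Jake, Dog Y and Rosco (Dog Y not well above background). It read −2.64 in the second resistant aspirate, −4.61 in Thai, −0.65 in MalcolmX after metformin and −4.69 after death. Both skin values lay above all 13 tumour values.

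Other carriers were measured in skin and in some tumours. SLC6A4, which recovers serotonin, was at −3.97 and −1.34 in the skin of MalcolmX and Rosco, at −5.03 and −5.58 in the biopsies of MalcolmX and Rosco, at −4.93 in the second resistant aspirate and at −5.87 in Thai. On the other 9 arrays it was not well above background, with −8.23 and −7.94 in the biopsies of Jake and Dog Y, −7.73 in MalcolmX after metformin, −8.28 after failed chemotherapy, −7.30 in remission, −8.23, −8.18 and −7.49 in relapse and −7.09 after death. Skin held both of the highest readings. SLC46A2 read −0.64 and 2.01 in skin, −1.89, −1.40, −2.18 and −0.83 in the biopsies of MalcolmX, Jake, Dog Y and Rosco, −1.15 in the second resistant aspirate, −0.13 in Thai, −3.66 in MalcolmX after metformin and −1.50 after death. SLC4A3, a chloride/bicarbonate exchanger of excitable tissue, was well above background only in skin (−3.74 and −3.00), the Rosco biopsy (−2.62) and the second resistant aspirate (−2.54). It read −6.76, −6.56 and −7.62 in the biopsies of MalcolmX, Jake and Dog Y, −6.81 in Thai, −6.57 in MalcolmX after metformin, −8.11, −7.91, −7.16, −7.07 and −6.69 from failed chemotherapy through remission to relapse 3, and −7.40 after death. SLC2A4, the insulin-responsive glucose carrier of muscle and fat, was well above background in MalcolmX skin (−2.26) and the Rosco biopsy (−5.34) only. Its other readings were −5.91 in Rosco skin, −7.52, −8.01 and −7.81 in the biopsies of MalcolmX, Jake and Dog Y, −5.22 in the second resistant aspirate, −8.84 in Thai and −7.29 in MalcolmX after metformin. They were −6.64, −7.38, −6.60, −7.97 and −7.84 from failed chemotherapy to relapse 3 and −8.46 after death. MalcolmX skin, the highest array for SLC2A4, was also the highest for the muscle markers, and the part of muscle in the reading was not tested.

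Directions within classes were mixed in this comparison. All 6 nucleotide sugar carriers, which supply the Golgi with building blocks for glycans, had higher means in the biopsies as scaled here and under all 5 other scalings, corrections and probe summaries tried, with differences of 0.26 to 1.13, and none passed. The median over all targets was also positive, at 0.25 as scaled here, where SLC35A3 had 0.26. Without the Rosco biopsy 5 of the 6 nucleotide sugar carriers were higher, with differences of 0.13 to 1.06. The sixth, SLC35A3, had a difference of −0.0029. The median over all targets was then 0.32, above SLC35A1 (0.30), SLC35C1 (0.13) and SLC35A3. Of 8 amino acid carriers 5 were higher and 3 lower, but SLC3A1 turned from −0.09 to 0.17 with median scaling (0.15 with quantile scaling, 0.06 with normexp) and SLC7A8 from 0.05 to −0.24 with the mean of its probes. Of 3 vitamin carriers 2 were higher. Slides 1 and 2 each held skin and resistant biopsies. With the slide as a block no carrier passed, and within slide 1, where MalcolmX skin stands against the biopsies of Jake, Rosco and Dog Y, none did. In the dogs that gave both tissues, MalcolmX and Rosco, a limma fit with the dog as a block called 0 of 24115 targets and thus 0 carriers. In it SLC1A3 (−4.52), SLC15A1 (−4.47) and, in the other direction, SLC1A2 (3.02) had adjusted p of 0.138, 0.218 and 0.22. Keratinocyte markers were lower in the biopsies for 7 of 7 genes, with 5 called, and fibroblast markers for 5 of 5 with 0 called. The part of these cells in the carrier differences was not tested.

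**Figure D4:**
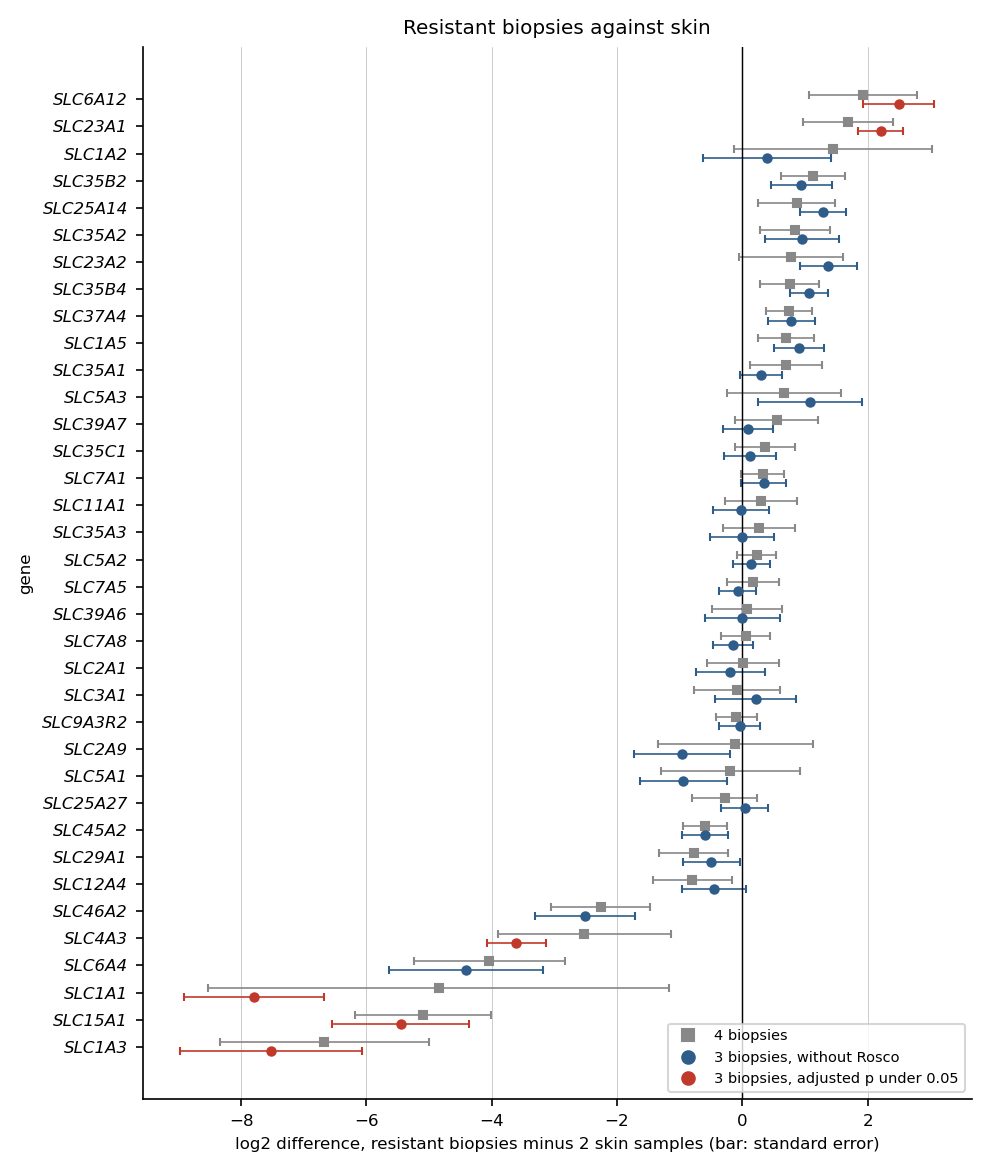
Log2 difference between resistant biopsies and 2 skin samples for the tested carriers reported, with the limma standard error as bars. Grey squares use all 4 biopsies, circles leave out the Rosco biopsy, and red circles passed an adjusted p of 0.05. SLC1A1 moves from −4.85 to −7.79 and its error shrinks when the Rosco biopsy is left out.

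The 2 samples high in gland genes held the highest values for many carriers. Of 36 carriers compared, 11 (30.6%) read above all 13 other arrays in both samples, against 11.6% of 24257 targets, and 3 (8.33%) read below all others, against 8.48% of targets. Genes were compared where both samples or all 13 others read them well above background. SLC1A1, SLC4A3 and SLC5A1 thus entered through the 2 samples alone, where they are high. The samples were singled out by their gland markers after their values were seen, both come from Rosco, and no test was made. Among the 11 were 4 of 6 nucleotide sugar carriers. SLC35A1, which carries CMP-sialic acid, read 0.17 in the Rosco biopsy and −0.50 in the second resistant aspirate, against −2.12 to −1.18 elsewhere. SLC35B2 read −0.19 and −0.24, against −2.44 in MalcolmX skin, −1.32 in Rosco skin, −1.26, −0.42 and −1.14 in the biopsies of MalcolmX, Jake and Dog Y, −1.34 in Thai, −1.05 in MalcolmX after metformin and −1.38 after death. SLC35A3, for UDP-N-acetylglucosamine, and SLC35C1, for GDP-fucose, complete the 4. The others were SLC1A1, SLC1A2, SLC2A9, SLC4A3, the zinc carrier of the secretory pathway SLC39A7 (2.05 and 2.03), the sodium/glucose cotransporter SLC5A1 (−2.26 and −2.24) and the amino acid carrier SLC7A8. SLC2A9, which carries urate, read 1.83 and 2.73 in the 2 samples, −1.47 and 0.24 in the skin of MalcolmX and Rosco, −1.18, −0.87 and −2.70 in the biopsies of MalcolmX, Jake and Dog Y, −2.58 in Thai and −1.69 in MalcolmX after metformin. In Rosco it read −2.34 after failed chemotherapy, −2.12 in remission, −3.11, −2.56 and −3.02 in relapse and −1.49 after death. The 3 lower ones were SLC12A4, SLC23A2 and SLC25A14.

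Values of carriers called in relapse are completed here for the arrays outside that comparison. SLC12A4 read −0.80 and −0.03 in the skin of MalcolmX and Rosco, −0.86, −0.21, −1.54 and −2.24 in the biopsies of MalcolmX, Jake, Dog Y and Rosco, −1.99 in the second resistant aspirate, −0.40 in Thai, −1.05 in MalcolmX after metformin and −1.08 after death. SLC25A14 read −1.20, −1.09, −0.20, 0.06, 0.57, −1.54, −1.79, −0.45, −0.20 and −0.60 in that order, and was lowest in the samples high in gland genes and next lowest, outside the earlier aspirates, in skin. SLC29A1 read 2.34, 2.91, 1.85, 1.74, 2.80, 0.99, 0.52, 1.43, 2.02 and 1.74 in the same order, so Rosco skin and the Dog Y biopsy were high and the gland-rich samples low. SLC39A6 read 1.72, 3.60, 2.66, 2.45, 2.86, 2.95, 2.54, 2.59, 2.84 and 2.73, and the skin samples were its lowest and highest arrays.

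The drug-sensitive biopsy of Thai was set against the 4 resistant biopsies. None of 35 tested carriers passed limma's test, where 0 of 26343 targets (0%) did, and 1 carrier was under 0.05 without adjustment (2.86%), against 2.98% of all targets. The median difference was −0.14 over the carriers and 0.08 over all targets. That gene was SLC11A1, the metal ion carrier that pulls iron and manganese out of the phagosomes of macrophages. It read 4.17 in Thai, 1.11, 0.23, 1.42 and 2.20 in the biopsies of MalcolmX, Jake, Dog Y and Rosco, 0.89 and 1.00 in the skin of MalcolmX and Rosco, and 1.82 in the second resistant aspirate. It read 0.84 in MalcolmX after metformin, 1.49 after failed chemotherapy, 2.36 in remission, 2.16, 1.65 and 1.03 in relapse and 1.50 after death. Thai was the highest of the 15 arrays for this gene. The difference from the resistant biopsies was 2.93 (SE 0.80, limma adjusted p = 1), and the second probe gave 2.50. Without the Rosco biopsy it was 3.25 (adjusted p = 0.587). The 4 macrophage markers measured had a median difference of 1.07 and T and NK cell markers one of 3.38, none called, and their part in the reading was not tested.

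Other carriers differed by more than 2 standard errors, and with 1 array on one side their adjusted p does not show whether they differed. SLC6A12 was 2.38 higher on the log2 scale than the mean of the resistant biopsies (SE 1.11) and SLC3A1 differed by −2.22 (SE 0.96), both with an adjusted p of 1. The 3 vitamin carriers had higher means in Thai. The differences were 1.44 for SLC46A2 (SE 0.65), 0.99 for SLC23A1 (SE 0.98) and 0.79 for SLC23A2 (SE 1.16). Those of SLC23A1 and SLC23A2 were under 2 standard errors. Without the Rosco biopsy the resistant means of these 3 were −1.83, −1.60 and −3.08, beside −0.13, −1.13 and −2.88 in Thai. For SLC6A12 and SLC3A1 they were −1.24 and −1.65, beside 0.56 and −4.16 in Thai. SLC45A2 too was past 2 standard errors, with a difference of 0.94 (SE 0.47), but with normexp correction the difference was −0.01. Thai was on slide 3, scanned on the later day, and the resistant biopsies on slides 1 and 2, so slide and scan day cannot be told apart from drug sensitivity.

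Tumour taken after death was set against the relapse aspirates of the same dog. None of 34 tested carriers passed limma's test, where 0 of 27116 targets (0%) did. Without adjustment 6 carriers were under 0.05, or 17.6%, against 15.2% of all targets. The median difference was 0.27 over the carriers and 0.06 over all targets. Higher after death were the 3 glutamate carriers SLC1A3 (difference 2.56, SE 0.77, at least 2.50-fold), SLC1A2 (1.97, SE 0.48) and SLC1A1 (1.84, SE 0.55), the urate carrier SLC2A9 (1.41, SE 0.32) and the zinc carrier SLC39A7 (0.68, SE 0.25), and SLC25A14 was lower (−0.68, SE 0.24). Their adjusted p ran from 0.19 to 0.314. When all probes of SLC39A7 were averaged its difference was 0.21. SLC1A3 and SLC1A1 entered the test through the post-mortem array alone. No relapse aspirate read SLC1A3 well above background, and not every one read SLC1A1 so. SLC6A12, which had risen in relapse, read 0.44 higher after death (SE 0.26, adjusted p = 0.47). All 5 fibroblast markers measured were higher after death, with a median difference of 3.49 and none called, and the part of stroma in these values was not tested.

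Samples before and after metformin could be compared in 2 dogs with 1 array on each side and no replicate, so no test was made. In MalcolmX, 6 of 35 carriers well above background on at least 1 of the arrays differed by more than 2-fold between the later aspirate and the biopsy (17.1%), against 12.5% of all targets. With normexp correction 13 did (37.1%), against 40.7% of all targets. SLC1A3 (2.05) and the inositol carrier SLC5A3 (1.68) were higher after metformin. SLC1A2 (−2.12), SLC46A2 (−1.77), SLC6A12 (−1.67) and SLC6A4 (at least 3.50-fold lower) were lower. The earlier sample was a biopsy and the later one a needle aspirate. In Rosco, 1 of 34 carriers differed by more than 2-fold between remission and failed chemotherapy (2.94%), against 8.46% of all targets. With normexp correction 0 did, against 0.976% of all targets, and 2 did (5.88%) with the series table, against 11.5%. It was SLC23A1, with −1.51. SLC6A12 differed by 0.16 and SLC15A1 by −0.33 in that pair. No carrier was past 2-fold in both dogs.

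SLC22A2, the only metformin carrier with a named probe, gave only background readings. Its readings were −8.19 and −6.94 in the skin of MalcolmX and Rosco, −5.47, −8.43, −6.13 and −7.41 in the biopsies of MalcolmX, Jake, Dog Y and Rosco, −7.83 in the second resistant aspirate, −9.11 in Thai and −8.23 in MalcolmX after metformin. They were −8.37, −7.37, −8.28, −8.29 and −8.27 from failed chemotherapy to relapse 3 and −8.69 after death. No difference can be read from them. SLC7A9, the light chain of the kidney cystine carrier, was well above background only in relapse 1 (−4.89). It read −7.88 and −8.07 in skin, −7.57, −8.17, −7.96 and −8.00 in the biopsies of MalcolmX, Jake, Dog Y and Rosco, −7.72 in the second resistant aspirate, −9.06 in Thai and −9.06 in MalcolmX after metformin. In Rosco it read −8.42 after failed chemotherapy, −8.34 in remission, −8.31 and −8.21 in relapse 2 and 3 and −7.98 after death, so 1 array of 15 holds all of its signal.

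The remaining carriers varied less or were dim. Among those of growing lymphocytes, SLC2A1 ran from 1.02 in Thai to 2.87 in Rosco skin, SLC1A5 from 0.27 in Rosco skin to 1.83 in the Jake biopsy, SLC7A5 from −4.48 to −2.44, and the arginine carrier SLC7A1 from 2.13 to 3.71. SLC7A5 was highest in the second resistant aspirate, and SLC7A1 was highest in remission and lowest in MalcolmX skin. SLC7A8 spanned −4.69 to −3.45 and SLC3A1 −4.16 to −1.00. Nucleotide sugar carriers spanned −3.14 to −1.51 for SLC35A2 (UDP-galactose), −0.50 to 1.29 for SLC35A3, −2.49 to −0.51 for SLC35B4 and −3.94 to −2.04 for SLC35C1. SLC35B4, for UDP-xylose, was lowest in the Rosco biopsy, where SLC35A1 and SLC35A3 were highest. SLC37A4, which brings glucose 6-phosphate into the endoplasmic reticulum, ran from 1.85 in MalcolmX skin to 4.35 after death. SLC39A7 ran from −0.35 to 2.05, and the mitochondrial carrier SLC25A27 from −3.87 to −2.09. Of the sodium-coupled carriers SLC5A1 spanned −5.89 to −2.24, SLC5A2 −4.27 to −2.72 and SLC5A3 −2.12 to 1.05. SLC45A2, a pigment cell protein, spanned −5.20 to −3.63. SLC6A3, the dopamine carrier, was well above background only in the Rosco biopsy (−5.14) and MalcolmX after metformin (−5.78). SLC10A2, SLC4A1 and SLC6A2 gave only background readings. The scaffold SLC9A3R2 had the narrowest range, from 1.89 in Thai to 2.80 after death, and its differences in the 4 tested comparisons were −0.10, −0.35, −0.01 and 0.44, none called.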

How the data were processed

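RNA was labelled with Cy3 and hybridised to 1-colour canine Agilent arrays, per the labels' protocols. Spot intensity was extracted by the authors with Agilent Feature Extraction 11.0.1.1, per the file headers, which subtracts background within each array and does not normalise between arrays. Flags in the deposited files, per the file headers, mark signal well above background, saturation and outlying pixels. The deposited series table holds linear intensity, and 678300 of 678300 cells equalled median signal minus background within 0.01.

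Here log2 of the processed signal was used, less the 75th percentile of its array (367 to 1241 in raw units). Control spots and 2 to 50 outlying spots per array were left out, and 0 spots were saturated. RefSeq identifiers, without versions, gave symbols to 2186 of 43603 probes (5.01%) through a table of the UU_Cfam_GSD_1.0 assembly, which is not the array's build, so no positions are given. Of several probes per target the brightest was used, giving 36604 targets. A target was tested where every array of a compared group flagged it. Tests were two-sided, with limma 3.58.1 in R 4.3.3, a Benjamini-Hochberg adjustment across tested targets and 0.05 as the threshold. Where a group has 1 array, the spread comes from the other group. P-values measure spread between these samples only, and the number of arrays limits the precision. No sequences are shown, since none were used here.

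The fits were tested on simulated data with known changes. Changes of 2 on the log2 scale were recovered in 64% of cases in relapse and 3% in biopsies against skin. With 1 array on one side 0% were. For changes of 5 the shares were 93% in relapse, 65% in biopsies against skin, 0% for the sensitive biopsy and 50% after death. The 0 carriers called outside relapse thus do not show that no carrier differed.

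All-array values are given for carriers past the threshold in any comparison, the 12 with the widest range among those measured on at least 1 array, metformin carriers, and carriers past 4-fold in a pair, except 1 carrier that is counted but not reported here. Other genes and markers are given as lists, except where a marker is named beside a result. Members, lists, tests and alternatives were chosen with earlier results of these data known. Alternatives were quantile and median scaling, normexp background correction with an offset of 50, the series table, other filters and probe summaries, the slide or dog as a block, and leaving out each array.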

Additional observations from a re-analysis of the deposited data

Results flagged for a closer look

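Among the 4 resistant biopsies, 1 sample stood far from the others for 6 of 38 carriers (15.8%), against 9.54% of 27456 targets, and chance alone marks about 1 in 20 groups of this kind. That sample was the Rosco biopsy for 5 of the 38 carriers (13.2%), against 1871 of the 27456 targets (6.81%). Among those flagged, it was the Rosco biopsy for 5 of the 6 carriers and 1871 of 2620 targets. The Rosco biopsy was high for SLC1A1 (3.64, others −8.43 to −7.80) and SLC39A7 (2.05, others 0.12 to 0.35). It was also high for SLC7A5 (−3.43, others −4.48 to −4.35) and low for SLC23A1 (−3.70, others −1.76 to −1.48) and SLC35B4 (−2.49, others −1.30 to −1.22). The MalcolmX biopsy was high for SLC37A4 (3.31, others 2.64 to 2.74).

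The second resistant aspirate of Rosco belongs to no comparison. Of 36 carriers well above background in it, 11 read more than 2-fold above both skin samples (30.6%), against 15.6% of 25091 targets. This filter looked at the aspirate alone, and skin also read all 11 well above background. These were SLC1A1 (3.46), SLC1A2 (1.88), SLC2A9 (2.73), SLC37A4 (3.63), SLC39A7 (2.03), SLC35A1 (−0.50), SLC35B2 (−0.24), SLC35C1 (−2.04), SLC5A1 (−2.24), SLC5A2 (−2.86) and SLC7A5 (−2.44). SLC1A1 and SLC39A7 were also among those high in the Rosco biopsy, and so was SLC7A5.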

How the results depend on the processing

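In relapse against earlier aspirates 13 carriers were called with quantile and with median scaling, 11 with the series table, 10 with normexp correction (28.9% of all targets), and 3 within slide 4 (9.43%). Of all targets 34.6% were called with quantile scaling, 35.1% with median scaling and 30.9% with the series table. The shares of carriers were 38.2%, 38.2% and 32.4% in that order, close to those of the array. With the slide as a block 12 carriers were called (29.3% of targets), among them SLC3A1 and SLC45A2 but not SLC35B2 and SLC39A6. Leaving out 1 array gave 4 to 16 calls, with 14.5% to 37.8% of targets called. In biopsies against skin 6 carriers were called without the Rosco biopsy (16.2%, against 12.8% of targets). Without another biopsy 0 were, where at most 0.0875% of targets were. The scalings, filters, probe summary and blocks also gave 0, where at most 0.447% of targets were called. The sensitive biopsy and post-mortem comparisons gave 0 calls in the settings tried, which says nothing about stability with 1 array on one side. The random slide block for the sensitive biopsy, and the scalings of counts over all arrays, were added after seeing the data. SLC7A8 reversed in relapse when its probes were averaged, from −0.47 to 0.19, and its second probe was well above background on 1 array. For the pairs, carriers past 2-fold in MalcolmX were 13 with normexp correction in place of 6. In Rosco they were 0 with normexp correction and 2 with the series table in place of 1. Normexp correction shrank the relapse differences of dim genes, to −0.60 for SLC1A3 and 0.46 for SLC23A2, neither called. With it 7 carriers in place of 11 read above all other arrays in the 2 samples high in gland genes, and 10 to 12 under the other scalings. Median scaling moved the median of all targets from 0.25 to 0.51 in biopsies against skin, from −0.08 to 0.11 in relapse and from 0.06 to −0.18 after death. The causes were not tested. No paired analysis by replicate number was possible because the groups compared share no replicate numbers in the labels, and the block by dog called 0 carriers in biopsies against skin. Dim readings limit SLC15A1, SLC1A1, SLC1A3, SLC4A3 and SLC6A4, whose folds are bounds or approximate.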
